A study of Bos taurus with 8 samples.

Results

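Integrins are the transmembrane receptors, each an alpha subunit paired with a beta subunit, through which cells hold the extracellular matrix. Laminins are the cross-shaped proteins that build the sheet of basement membrane under an epithelium, each a trimer of an alpha, a beta and a gamma chain. In the uterus the epithelium sits on such a membrane, and integrins and their ligands on its cells are studied in connection with attachment of the embryo. The genes of both families were taken by symbol from the deposited table (ITGA, ITGB, LAMA, LAMB and LAMC followed by the subunit), which gave 37 of 28709 genes. The 36 described are 18 integrin alpha, 8 integrin beta, 5 laminin alpha, 3 laminin beta and 2 laminin gamma chains. Of these 36, 26 had enough counts to be tested, 18 integrins and 8 laminins, and 10 did not. All counts of family members below are over these genes.

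The RNA came from BUTE, a line of uterine epithelial cells established from 1 Holstein cow. All cells were starved of serum and steroids for 24 h in the presence of insulin-like growth factor 1 (IGF1). The controls (4 libraries) then received the vehicle DMSO and the treated cells (4 libraries) 10 µM progesterone, both for 24 h with 50 ng/ml of IGF1, so that every library comes from cells stimulated with IGF1. The labels name no genetic change in either group (wild type), and nothing in them tells if libraries are independent cultures. The p-values therefore reflect library-to-library spread, which may be technical. Each library carries the name of its column: DMSO R1, R3, R7 and R9, and progesterone R1, R2, R3 and R6.

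Libraries held between 23810861 and 32509786 estimated counts. DMSO R7 and R9 stood apart from the other 6 on the first principal component, which held 62.2% of the variance of log2 CPM. Fold changes were therefore computed against all 4 DMSO libraries and against DMSO R1 and R3 alone. The comparisons share 6 libraries and are not independent. Among markers of the labelled epithelial type, KRT8 and KRT19 were abundant (1348.3 to 2789.2 and 255.4 to 706.2 CPM, counts scaled to library size and between libraries). KRT7 lay between 5.70 and 35.3 CPM, CDH1 between 10.5 and 22.7 CPM and KRT18 between 0.948 and 6.92 CPM. EPCAM lay between 0.275 and 2.53 CPM, while CLDN3, CLDN4 and CLDN7 stayed at or below 0.238 CPM. Levels in CPM depend on transcript length and are compared between libraries for 1 gene, not between genes. In these bulk samples, fewer cells of a type and less RNA per cell cannot be told apart.

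None of the 26 described and tested genes passed the test, either against all 4 DMSO libraries or against R1 and R3. The nearest to a call against all DMSO libraries were ITGA6, LAMC1 and ITGA1, all lower with progesterone, and the widest differences were those of LAMA1 and LAMA4, which were carried by DMSO R7 and R9. An adjusted p under 0.05 in edgeR's quasi-likelihood test (Benjamini-Hochberg adjustment over all genes) was counted as a call. Against all 4 DMSO libraries, edgeR called 0 of 26 lower and 0 higher, while 0.959% of all 13557 genes tested were called lower and 1.69% higher. With R1 and R3 as controls, it called 0 of 26 in either direction, beside 0.182% lower and 0.995% higher of 13764 genes. An unadjusted p under 0.05 was found for 7 of the 26 (26.9%) in the first comparison, near the 26.8% of all genes, and for 2 (7.69%) in the second, below the 15.9% of all genes. DESeq2 called 6 lower and 0 higher in the first comparison, where it called 6.95% of all genes lower and 6.55% higher, and 0 in the second, beside 1.17% lower and 2.96% higher. Limma voom called 0 in each, beside 0.575% of all genes lower and 1.47% higher in the first comparison and 0.174% and 0.814% in the second. Over the 26 genes the median log2 fold change was -0.11 against all DMSO libraries, where the median of all genes was -0.01, and 0.01 against R1 and R3, where it was also 0.01.

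**Figure D1:**
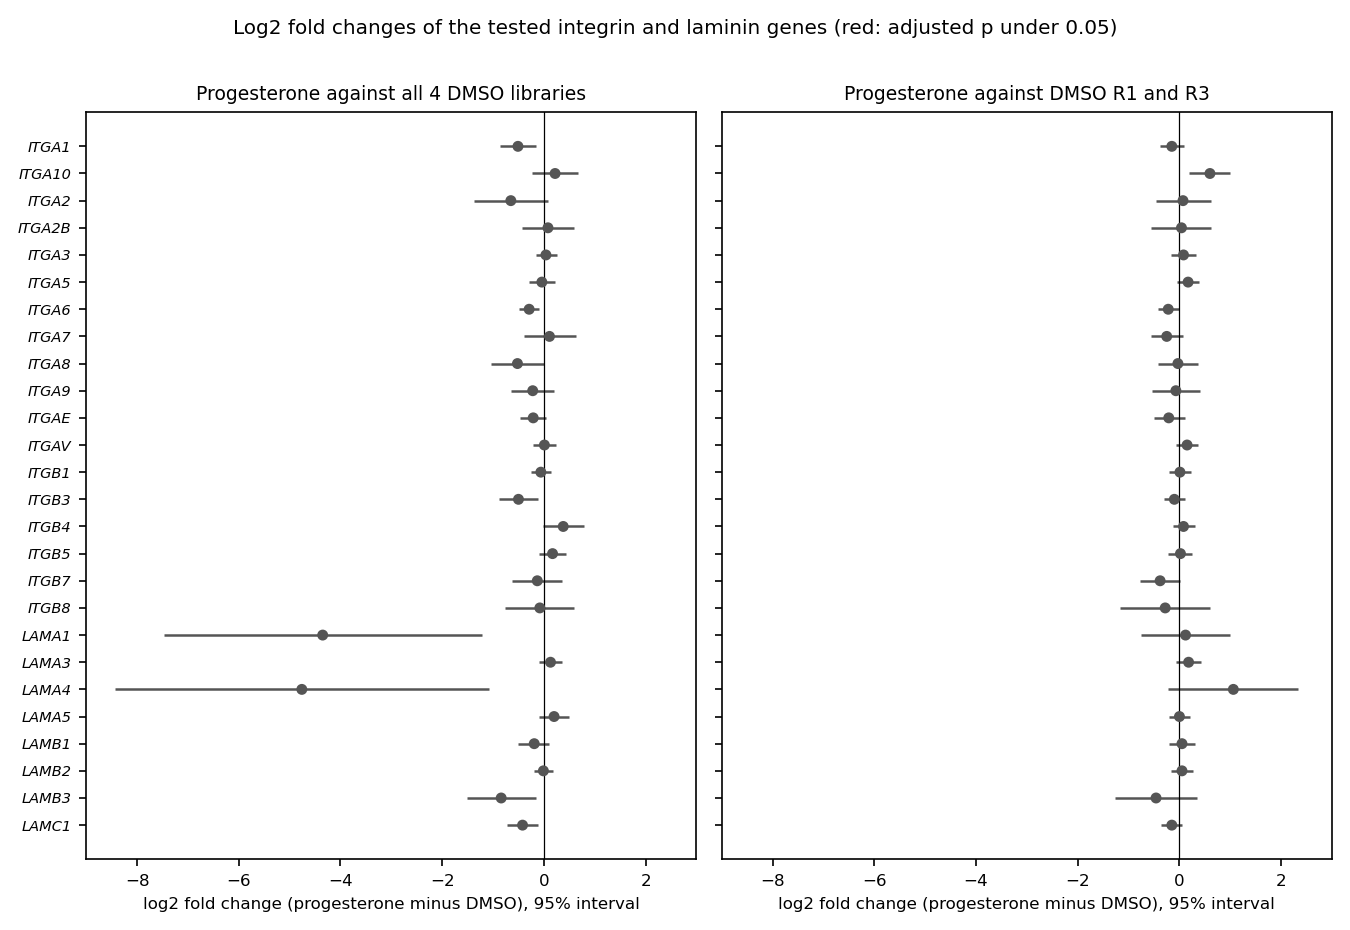
Log2 fold change (progesterone minus DMSO) with its 95% interval for 26 tested integrin and laminin genes, against all 4 DMSO libraries on the left and against DMSO R1 and R3 on the right. None of them is past an adjusted p of 0.05 in either panel, and LAMA1 and LAMA4 have wide intervals below 0 on the left and intervals that include 0 on the right.

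The gamma chains join the long arm of the laminin trimer. LAMC1 (Entrez Gene 532572, chromosome 16), the gamma chain of most basement membrane laminins, was at 715.5, 693.7, 1027.2 and 940.7 CPM in DMSO R1, R3, R7 and R9 and at 674.0, 634.9, 625.2 and 582.4 CPM in progesterone R1, R2, R3 and R6, the order kept below. The groups were without overlap, but R1 and R3 lay close above the progesterone range. The log2 fold change of LAMC1 was -0.42 ± 0.14 (SE, edgeR adjusted p = 0.0946), and -0.15 ± 0.09 against R1 and R3 (adjusted p = 0.484), and neither passed. Without DMSO R1 the first of these values was -0.49 and passed (edgeR adjusted p = 0.0430). That fit called 1782 of all genes, beside 359 with all 8 libraries. LAMC3, another gamma chain, had at most 1 count in a library.

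The summed level of 9 epithelial markers lay between 2821 and 3073 CPM with DMSO and between 1739 and 2659 CPM with progesterone, and so was lower in every progesterone library, as LAMC1 was. Of the 6 tested markers edgeR called 0 (unadjusted p under 0.05 in 3, calls by DESeq2 3, by voom 0). Against all DMSO libraries 3 had log2 fold changes above 0 (CDH1 0.37, KRT7 0.22 and KRT19 0.08), and EPCAM, KRT8 and KRT18 were below 0. Only KRT8 was without overlap between the groups. Against R1 and R3 only CDH1 was above 0 (0.18). KRT8 held most of that sum, and its part in the values of the laminin and integrin genes that were lower in every progesterone library was not tested.

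The beta chains occupy the same place in each trimer. LAMB3 (529939, chromosome 16), a beta chain of epithelial laminin, was at low levels: 0.853, 0.845, 1.22 and 1.47 CPM with DMSO and 0.581, 0.713, 0.457 and 0.703 CPM with progesterone. Every progesterone library was below every DMSO library, but the fold change did not pass in either comparison (-0.84 ± 0.31 SE, edgeR adjusted p = 0.125, and -0.46 ± 0.36, adjusted p = 0.583). LAMB1, the beta chain paired with LAMC1 in the most widespread laminins, was at 510.6, 424.5, 626.8 and 635.0 CPM with DMSO and at 536.8, 482.0, 426.8 and 474.8 CPM with progesterone. R7 and R9 were above the other 6 libraries and R1 and R3 overlapped the progesterone group. The log2 fold change of LAMB1 was -0.19 ± 0.14 (SE), and 0.05 ± 0.12 against R1 and R3.

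LAMB2, a beta chain prominent at synapses and in the kidney filter, was at 268.0, 281.5, 284.7 and 301.2 CPM with DMSO and at 280.5, 251.8, 310.0 and 285.8 CPM with progesterone. No library stood apart, and the 95% interval of the log2 fold change reached from -0.20 to 0.18, and against R1 and R3 from -0.17 to 0.27. Another 2 rows of the table, which RefSeq describes as LAMB2 or LAMB2-like, held 16 to 36 counts in a library. Reads that these rows share with LAMB2 could be split between them, which leaves its level uncertain to that extent.

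Of the alpha chains, which carry the domains that integrins bind, LAMA1 and LAMA4 were high in DMSO R7 and R9 and low in all other libraries of both groups. LAMA4 (529670, chromosome 9), a chain best known from vessel walls and other mesenchymal tissue, was at 0.307 and 0.551 CPM in DMSO R1 and R3 and at 46.3 and 48.9 CPM in R7 and R9. With progesterone it was at 0.611, 0.753, 0.492 and 1.74 CPM. R7 and R9 thus held on average 111-fold more than R1 and R3, where LAMA4 had only 9 and 15 counts. Ranked by this ratio LAMA4 was 7th from the highest of the 13557 genes tested. Genes below the filter were not ranked, among them COL4A4 with a ratio of 174. LAMA1 (506387, chromosome 24), the alpha chain of early embryonic and some epithelial basement membranes, was at 4.03 and 8.30 CPM in R1 and R3 and at 258.2 and 266.9 CPM in R7 and R9, 42.6-fold more, and ranked 12th. With progesterone LAMA1 was at 3.61, 7.06, 6.32 and 9.64 CPM, across the range of R1 and R3.

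Neither gene passed against all 4 DMSO libraries, with a wide error for both. The log2 fold change was -4.76 ± 1.59 for LAMA4 (SE, edgeR adjusted p = 0.117) and -4.35 ± 1.35 for LAMA1 (adjusted p = 0.102). Both values changed sign against R1 and R3, to 1.06 ± 0.58 for LAMA4 (edgeR adjusted p = 0.415) and 0.12 ± 0.39 for LAMA1 (adjusted p = 0.920). DESeq2 called both genes lower against all DMSO libraries (adjusted p = 0.0110 for LAMA4 and 0.00651 for LAMA1), and LAMA1 passed in edgeR without DMSO R1 (-4.75, adjusted p = 0.0428). That edgeR fit called 1782 of all genes, beside 359 with all 8 libraries. Without progesterone R6, the highest of its group, the value of LAMA4 against R1 and R3 was 0.53 and that of LAMA1 was -0.13.

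Markers of other cell types were set beside these 2 genes. Summed over 9 stromal markers, R7 and R9 held 20569 and 19039 CPM and the other 6 libraries between 12083 and 13572 CPM. COL1A1, COL1A2 and VIM held most of this sum, and COL1A1 and COL1A2 also belong to the integrin ligands summed below. Of the 9 markers, 6 were highest in R7 and R9 (COL1A1, COL1A2, COL3A1, LUM, PDGFRA and THY1), 2 were lowest there (DCN and PDGFRB) and VIM overlapped. The 5 endothelial markers summed to 2.99 and 3.67 CPM in R7 and R9 and to between 3.73 and 6.62 CPM elsewhere, with CDH5 and KDR at or below 0.340 CPM in every library. VWF made most of this sum and was lowest in R7 and R9 (1.66 and 1.59 CPM, against 3.05 to 5.50 CPM), whereas CDH5 and KDR, with at most 5 and 9 counts in a library, were highest in R7 and R9, and PECAM1 and TEK overlapped. Smooth muscle markers summed to 2922 and 2878.5 CPM against 1572.5 to 2347 CPM. TAGLN and DES were highest in R7 and R9 (2202.9 and 2071.4 CPM for TAGLN, against 885.5 to 1402.0 CPM), CNN1 was lowest there (125.0 and 124.8 CPM, against 139.2 to 213.8 CPM), ACTA2 overlapped and MYH11 stayed at or below 0.176 CPM. The part of the stromal, endothelial and smooth muscle markers in the levels of LAMA1 and LAMA4 was not tested.

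Neither of the other tested alpha chains passed. LAMA5 (506751, chromosome 13), the broad alpha chain of adult epithelial basement membranes, was at 994.7, 942.2, 750.9 and 661.3 CPM with DMSO and at 1017.4, 946.4, 977.4 and 893.0 CPM with progesterone. R7 and R9 were low and R1 and R3 lay within the progesterone range, so that the log2 fold change of 0.20 ± 0.13 (SE) became 0.00 ± 0.10 against R1 and R3. LAMA3, an alpha chain of epithelial laminin that occurs together with LAMB3, was at 49.9, 42.2, 45.3 and 51.2 CPM with DMSO and at 55.4, 49.1, 46.6 and 55.3 CPM with progesterone. Its groups overlapped, with a log2 fold change of 0.13 (95% interval -0.09 to 0.35, edgeR adjusted p = 0.409), and of 0.18 against R1 and R3 (-0.07 to 0.43). LAMA2, the muscle and nerve chain, had 0 counts in 5 libraries and at most 6 in one.

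**Figure D2:**
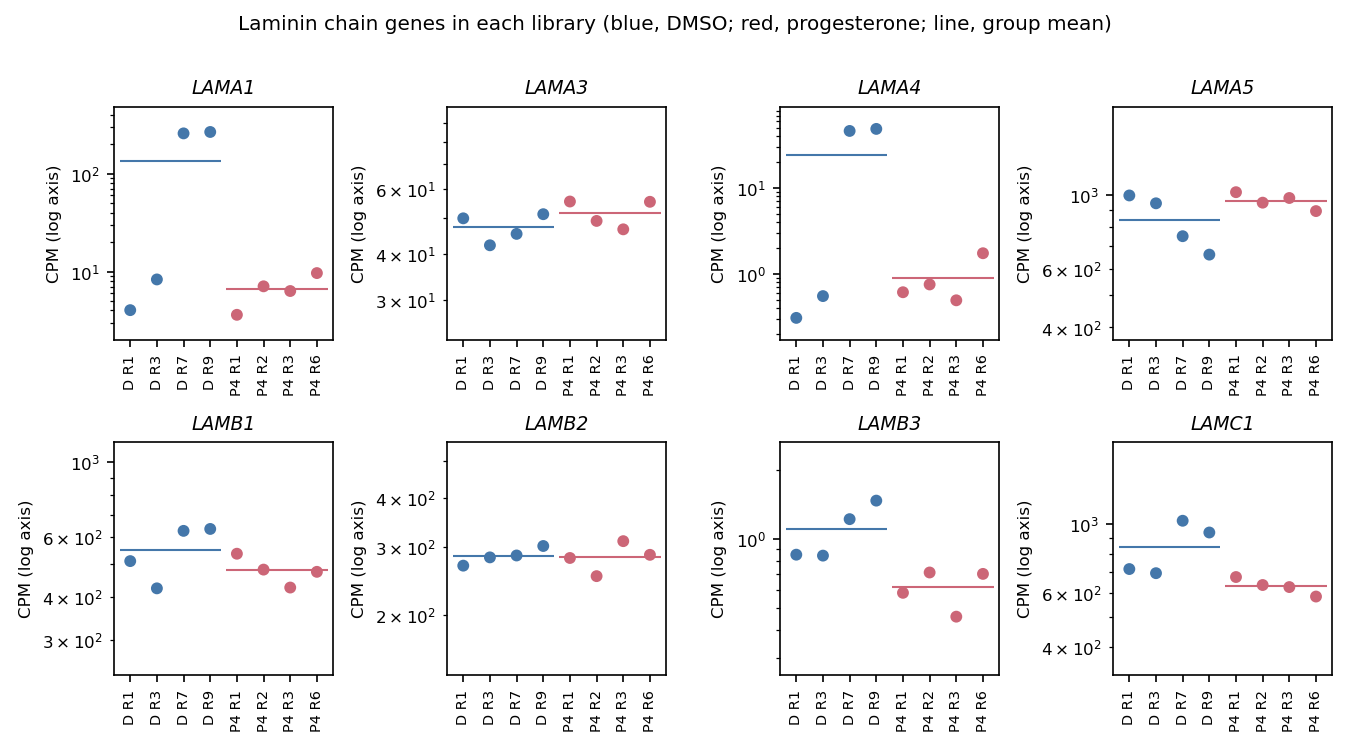
CPM on a log axis in each of the 8 libraries (D, DMSO; P4, progesterone) for 8 tested laminin genes, with group means as lines. LAMC1 and LAMB3 are lower in all 4 progesterone libraries than in any DMSO library, and LAMA1 and LAMA4 are raised in DMSO R7 and R9 alone.

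Of the 18 tested integrin genes, 0 were called by edgeR in either comparison. An unadjusted p under 0.05 was found for 3 of them (16.7%) against all DMSO libraries, where 26.8% of all genes had one, and for 2 (11.1%) against R1 and R3, where 15.9% had one. DESeq2 called 3 lower in the first comparison (ITGA1, ITGA6 and ITGB3) and 0 in the second, and voom called 0 in both. In the first comparison ITGA1 and ITGB3 passed in edgeR without DMSO R1 (adjusted p = 0.0398 and 0.0470) and without DMSO R3 (adjusted p = 0.0456 and 0.0431). These fits called 1782 and 795 of all genes, beside 359 with all 8 libraries. Log2 fold changes lay between -0.65 and 0.38 in the first comparison and between -0.38 and 0.60 in the second.

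The laminin-binding integrins pair the ITGA3, ITGA6 or ITGA7 subunit with ITGB1, and ITGA6 also with ITGB4, the subunit of hemidesmosomes with a long cytoplasmic tail that reaches the keratin filaments. ITGA6 (535043, chromosome 2) was at 773.0, 796.8, 838.7 and 872.1 CPM with DMSO and at 720.8, 668.1, 669.0 and 618.3 CPM with progesterone. Among the tested integrins it alone had no overlap between all 4 DMSO and the progesterone libraries, which were all lower. The difference was small, at 820.2 ± 44.0 against 669.0 ± 41.8 CPM (mean ± SD, n = 4 each). The log2 fold change was -0.29 ± 0.09 (SE, edgeR adjusted p = 0.0819). It was -0.22 ± 0.10 against R1 and R3, with the groups again apart (edgeR adjusted p = 0.3). Among the 26 genes, 3 were without overlap in the first comparison, all lower (LAMC1, LAMB3 and ITGA6), beside 8.22% of all genes lower and 7.95% higher. When R1 and R3 alone were the controls, 4 were lower without overlap and 2 higher, beside 13.9% and 12.9% of all genes; ITGB7 joined the lower genes and ITGA10 and ITGA5 were the higher ones.

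ITGB4 (506995, chromosome 19) was at 366.9, 371.2, 230.6 and 219.6 CPM with DMSO and at 411.9, 370.6, 411.7 and 354.9 CPM with progesterone. R1 and R3 lay within the progesterone range, whereas R7 and R9 lay well below it. The log2 fold change of 0.38 ± 0.18 (SE, edgeR adjusted p = 0.195) became 0.08 ± 0.10 against R1 and R3 (adjusted p = 0.725). ITGB4 was thus lowest in the libraries in which its partner ITGA6 was highest. ITGA7, the muscle-type laminin receptor subunit, was at 34.5, 27.7, 16.4 and 17.3 CPM with DMSO and at 31.1, 25.4, 25.2 and 21.9 CPM with progesterone. It was lowest in R7 and R9, like ITGB4, and its log2 fold change was 0.11 ± 0.23 (SE) against all DMSO libraries and -0.25 ± 0.14 against R1 and R3.

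ITGA3, the main laminin-binding alpha subunit of many epithelia beside ITGA6, was at 677.6, 641.5, 687.2 and 675.1 CPM with DMSO and at 779.6, 693.0, 662.4 and 626.5 CPM with progesterone. ITGB1, the beta subunit shared by many integrins, was at 1602.5, 1598.7, 1642.8 and 1815.8 CPM with DMSO and at 1678.3, 1609.0, 1527.3 and 1554.8 CPM with progesterone. In both genes the groups overlapped. The 95% interval of the log2 fold change was -0.16 to 0.25 for ITGA3 and -0.26 to 0.13 for ITGB1, and against R1 and R3 -0.16 to 0.32 and -0.20 to 0.22.

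The receptors of fibronectin, vitronectin and osteopontin recognise a short Arg-Gly-Asp motif and comprise ITGA5 and ITGA8 with ITGB1, and ITGAV with several beta subunits. ITGB3 (282642, chromosome 19) was at 159.1, 144.7, 245.6 and 248.9 CPM with DMSO and at 151.4, 143.7, 132.8 and 135.2 CPM with progesterone. R7 and R9 were high, and R1 and R3 overlapped the progesterone libraries. Its log2 fold change was -0.50 ± 0.17 (SE, edgeR adjusted p = 0.110), and -0.10 ± 0.09 against R1 and R3 (adjusted p = 0.653). ITGB5, another ITGAV partner, was at 181.9, 147.4, 127.0 and 131.7 CPM with DMSO and at 175.8, 161.0, 171.6 and 151.5 CPM with progesterone, with R7 and R9 lowest. Its log2 fold change was 0.17 ± 0.12 (SE), and 0.02 ± 0.11 against R1 and R3. ITGAV itself was at 605.9, 536.0, 681.9 and 676.9 CPM with DMSO and at 684.0, 602.1, 626.3 and 600.5 CPM with progesterone. Its groups overlapped, and the 95% interval of its log2 fold change reached from -0.22 to 0.23, and against R1 and R3 from -0.07 to 0.37.

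ITGA5 (281873, chromosome 5), the classical fibronectin receptor subunit, was at 190.6, 192.5, 244.6 and 247.9 CPM with DMSO and at 207.3, 204.3, 239.7 and 200.7 CPM with progesterone. Every progesterone library was above R1 and R3, but the log2 fold change of 0.17 ± 0.10 (SE) did not pass (edgeR adjusted p = 0.435), and with all DMSO libraries it was -0.04 ± 0.11. ITGA8, the nephronectin receptor subunit, was at 27.8, 25.4, 49.0 and 45.0 CPM with DMSO and at 31.8, 28.4, 23.4 and 19.3 CPM with progesterone. R7 and R9 were again the highest, and the log2 fold change of -0.52 ± 0.23 (SE, edgeR adjusted p = 0.191) became -0.03 ± 0.18 against R1 and R3.

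ITGB8, an ITGAV partner that activates latent TGF-beta, was at 19.9, 10.7, 10.7 and 11.6 CPM with DMSO and at 16.2, 15.1, 6.25 and 12.3 CPM with progesterone. DMSO R1 was the highest library and progesterone R3 the lowest, and the log2 fold change was -0.08 ± 0.30 (SE), and -0.28 ± 0.38 against R1 and R3. ITGB6, the other epithelial ITGAV partner known for TGF-beta activation, had 1 count in 1 library and 0 in the other 7. A count of 0 allows up to 0.0917 to 0.124 CPM, depending on the library, taking 3 counts as the limit and counting error only.

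The collagen receptors pair ITGA1, ITGA2, ITGA10 or ITGA11 with ITGB1. ITGA1 and ITGA2 are neighbours on chromosome 20, with 0 protein-coding genes between them in the RefSeq annotation (assembly ARS-UCD2.0). ITGA1 (535951) was at 222.8, 211.7, 319.7 and 347.9 CPM with DMSO and at 218.3, 174.8, 183.5 and 198.2 CPM with progesterone. ITGA2 (281872) was at 8.84, 5.69, 15.7 and 17.3 CPM with DMSO and at 9.60, 7.97, 5.44 and 7.24 CPM with progesterone. Both were high in R7 and R9, and in both R1 and R3 overlapped the progesterone libraries. The log2 fold change was -0.51 ± 0.16 for ITGA1 (SE, edgeR adjusted p = 0.0952) and -0.65 ± 0.33 for ITGA2 (adjusted p = 0.232), and against R1 and R3 -0.15 ± 0.10 and 0.07 ± 0.25.

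ITGA10 (506526, chromosome 3), known as a cartilage collagen receptor subunit, was the integrin with the largest positive difference against R1 and R3. It was at 4.30, 4.00, 6.35 and 6.69 CPM with DMSO and at 7.09, 5.79, 5.76 and 6.25 CPM with progesterone. R7 and R9 lay within the progesterone range and R1 and R3 below it. The log2 fold change was 0.60 ± 0.18 (SE, edgeR adjusted p = 0.146) against R1 and R3 and 0.22 ± 0.20 (adjusted p = 0.503) against all 4, and neither passed. ITGA11, which was too low to be tested, had 40 and 24 counts in R7 and R9, against 0 to 12 elsewhere.

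**Figure D3:**
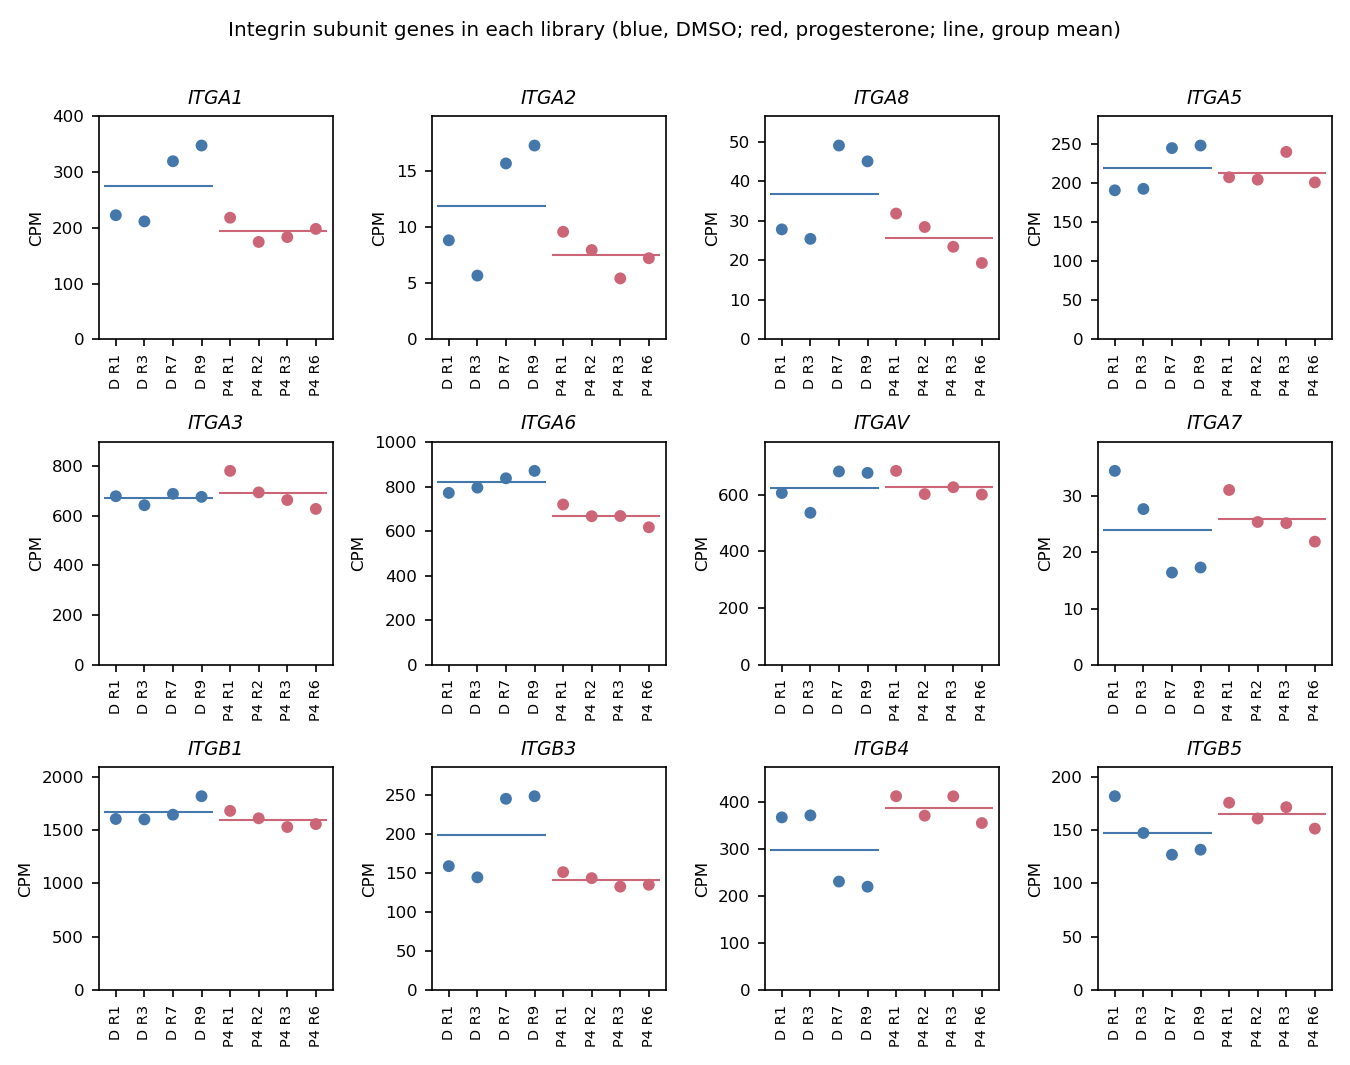
CPM in each of the 8 libraries (D, DMSO; P4, progesterone) for 12 integrin subunit genes, on axes that start at 0, with group means as lines. ITGA6 is lower in every progesterone library, while ITGA1, ITGA2, ITGA8 and ITGB3 are raised, and ITGB4, ITGB5 and ITGA7 lowered, in DMSO R7 and R9.

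Other alpha subunits of non-leukocyte type overlapped between the groups. ITGA9, a tenascin and osteopontin receptor subunit, was at 4.71, 6.61, 7.23 and 6.32 CPM with DMSO and at 5.07, 5.91, 6.08 and 4.26 CPM with progesterone. ITGA2B, the platelet partner of ITGB3, was at 2.90, 2.75, 2.58 and 2.69 CPM with DMSO and at 2.29, 2.38, 4.00 and 2.85 CPM with progesterone. The log2 fold changes were -0.22 ± 0.19 for ITGA9 and 0.08 ± 0.23 for ITGA2B (SE), and against R1 and R3 -0.07 ± 0.21 and 0.04 ± 0.27. ITGAE and ITGB7 form the receptor by which intraepithelial lymphocytes hold E-cadherin. ITGAE was at 17.8, 20.9, 18.4 and 19.8 CPM with DMSO and at 14.4, 16.8, 16.3 and 19.0 CPM with progesterone, with a log2 fold change of -0.21 ± 0.12 (SE), and -0.21 ± 0.14 against R1 and R3. ITGB7 was at 6.14, 6.24, 3.36 and 4.88 CPM with DMSO and at 4.46, 4.56, 5.55 and 4.30 CPM with progesterone. All 4 progesterone libraries were below R1 and R3 for ITGB7, with a log2 fold change of -0.38 ± 0.18 (SE) that did not pass (edgeR adjusted p = 0.333), and it was -0.13 ± 0.22 against all DMSO libraries.

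Apart from ITGAE and ITGB7, the integrin subunits known mainly from leukocytes had few or no counts. ITGAL and ITGAM had 1 count in 1 library and 0 in the other 7, ITGA4 had 2 counts in each of R7 and R9 and 0 elsewhere, and ITGAX had at most 5, ITGAD at most 10 and ITGB2 at most 11 counts in a library. Of 6 leukocyte markers, PTPRC and MS4A1 were at 0 in all 8 libraries and CD3E and LYZ had at most 6 and 5 counts, whereas CD14 had 83 to 332 and CD68 25 to 79 counts. Of 3 platelet markers, PF4 was at 0 throughout, GP1BA had at most 2 counts and GP9 had 31 to 78 counts in a library. ITGAD, ITGAM and ITGAX are related genes whose shared reads an estimate could split.

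The position of DMSO R7 and R9 recurred over both families, as it did over all genes. Of the 26 tested genes, 11 (42.3%) were higher in both of these libraries than in all other 6 and 4 (15.4%) were lower, beside 25.2% and 24% of all genes tested. R7 and R9 belong to 1 group and were set apart after their values were known, so these shares are a description without a test. The 11 were ITGA1, ITGA2, ITGA5, ITGA6, ITGA8, ITGB3, LAMA1, LAMA4, LAMB1, LAMB3 and LAMC1, and the 4 were ITGA7, ITGB4, ITGB5 and LAMA5. Against R1 and R3 the absolute log2 fold change was smaller than against all DMSO libraries in 16 of 26 genes. The sign changed in 9, among them LAMA5, whose value against R1 and R3 was 0.00. These 2 counts were not taken over all genes, so they do not set the families apart.

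**Figure D4:**
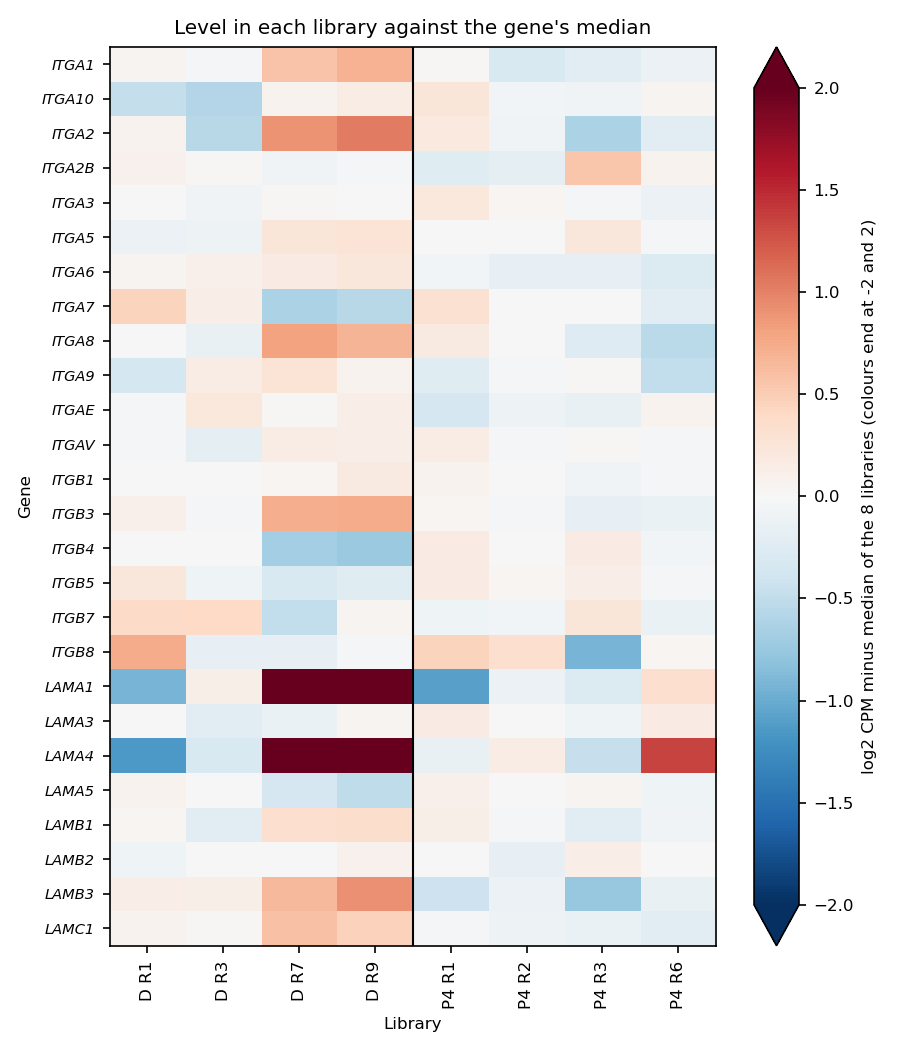
Log2 CPM of each tested integrin and laminin gene (rows) in each library (columns; D, DMSO; P4, progesterone), minus the gene's median over the 8 libraries. DMSO R7 and R9 carry most of the strong colour, with LAMA1 and LAMA4 beyond the end of the scale.

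Around the laminins and integrins, the partner genes of basement membrane, adhesion sites and hemidesmosomes gave 4 calls against all DMSO libraries and 0 against R1 and R3. In the first comparison edgeR called 1.69% of all genes higher and 0.959% lower, and 26.8% had an unadjusted p under 0.05. There DESeq2 called 0 to 8 genes of a list, beside 6.55% of all genes higher and 6.95% lower. Voom called 0 to 2, beside 1.47% higher and 0.575% lower. In the second comparison, 1 to 5 genes of each of the 7 lists had an unadjusted p under 0.05, which 15.9% of all genes had. There DESeq2 called 0 to 4 of a list, beside 2.96% of all genes higher and 1.17% lower. Voom called 0 to 1, beside 0.814% higher and 0.174% lower. Of 14 tested basement membrane components other than laminins, 1 was called higher and 0 lower, with a median log2 fold change of 0.27 and an unadjusted p under 0.05 in 5. DESeq2 called 2 higher and 2 lower, and voom 1 higher. The edgeR call was NID1, the nidogen that links laminin gamma chains to type IV collagen. NID1 was at 178.8, 147.0, 120.2 and 104.7 CPM in DMSO R1, R3, R7 and R9 and at 314.0, 197.3, 264.0 and 303.2 CPM with progesterone. All progesterone libraries were above all DMSO libraries, and NID1 rose 1.96-fold (0.97 ± 0.19 SE on the log2 scale, adjusted p = 0.0331 by edgeR). Against R1 and R3 the value was 0.74 and did not pass (edgeR adjusted p = 0.0848). Its paralogue NID2 had a log2 fold change of -0.15 against all 4 and 0.38 against R1 and R3 (edgeR adjusted p = 0.676 and 0.0850).

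Other basement membrane genes named by their p were SMOC1, PXDN and FRAS1, with log2 fold changes of -3.03, 0.65 and -0.80 (edgeR adjusted p between 0.0816 and 0.116). PXDN had 0.30 and FRAS1 -1.10 against R1 and R3. SMOC1, a matricellular protein of basement membranes, was at 199.9 CPM on average in R7 and R9 and at 22.6 CPM in R1 and R3, and its log2 fold change against R1 and R3 was -0.71. The type IV collagen pair COL4A1 and COL4A2, which form the collagen network of the membrane, had values of 0.03 and 0.42, and of 0.09 and 0.20 against R1 and R3, and neither passed.

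Of 10 tested tetraspanins and hemidesmosome parts, 1 was called lower and 0 higher (median 0.22; unadjusted p under 0.05 in 6). DESeq2 called 1 lower and 1 higher, and voom 0. COL17A1, the transmembrane collagen of hemidesmosomes, was at 1.02, 1.91, 3.87 and 4.16 CPM with DMSO and between 0.396 and 0.703 CPM with progesterone. It fell 5.33-fold against all DMSO libraries (-2.41 ± 0.46 SE on the log2 scale, adjusted p = 0.0307 by edgeR), and its value was -1.50 against R1 and R3 (adjusted p = 0.0910). The laminin-receptor-associated tetraspanin CD151 was higher in every progesterone library, at 843.5 ± 58.5 against 659.6 ± 48.6 CPM (mean ± SD, n = 4 each). CD151 did not pass (0.35 ± 0.09 SE, edgeR adjusted p = 0.0665, and 0.28 against R1 and R3). CD63 and KRT5 had log2 fold changes of 0.32 and -1.03, and PLEC, the plectin that ties ITGB4 to keratins, had 0.15. Against R1 and R3 these were 0.33, -1.23 and 0.13. KRT5 had only 9 to 46 counts in a library and a mean below 1 CPM in both groups.

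Among 22 integrin signalling kinases and scaffolds, 1 was called lower and 0 higher (median -0.02; unadjusted p under 0.05 in 6). DESeq2 called 2 lower and 2 higher in this list, and voom 1 lower. The scaffold NEDD9, a docking protein of focal adhesions, fell 1.5-fold from 117.2 ± 16.5 to 77.9 ± 9.44 CPM (mean ± SD, n = 4 each). Its log2 fold change was -0.59 ± 0.12 (SE, edgeR adjusted p = 0.0376), and -0.42 against R1 and R3 (adjusted p = 0.131). GIT1, PTK2B and PAK1 had log2 fold changes of 0.34, 0.50 and -1.59, and against R1 and R3 of 0.22, 0.23 and 0.00. Of 24 tested adaptors that link integrins to actin, edgeR called 0 (median -0.09; unadjusted p under 0.05 in 5, calls by DESeq2 3, by voom 0). The actin crosslinker ACTN1 and the tensins TNS2 and TNS4 had log2 fold changes of -0.68, 0.61 and -2.01 (edgeR adjusted p between 0.0726 and 0.0864), and the paxillin gene PXN had -0.24. With R1 and R3 as controls these 4 values were -0.25, 0.33, -1.60 and -0.14. TNS4 had only 3 to 71 counts in a library, and DMSO R1 lay within its progesterone range.

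Of 17 tested integrin ligands other than laminins, 1 was called lower and 0 higher, with a median of -0.79 against all DMSO libraries and -0.21 against R1 and R3. In the first comparison DESeq2 called 7 lower and 1 higher, beside 6.95% and 6.55% of all genes, and voom 1 lower and 1 higher. An unadjusted p under 0.05 was found for 12 of the 17, beside 26.8% of all genes. The summed level of this list was 39405 and 36951 CPM in R7 and R9 and between 12660 and 15055 CPM elsewhere. In that list FN1, the fibronectin gene, reached 13742 and 13064 CPM in R7 and R9 and lay between 3636 and 4415 CPM elsewhere, and its mean was 3.59-fold higher in R7 and R9 than in R1 and R3. Its log2 fold change was -1.06 and against R1 and R3 0.15. For THBS1, a thrombospondin gene, that ratio was 6.14 and the log2 fold changes were -2.37 and -0.52, and neither gene passed. POSTN, the integrin ligand periostin, fell 2.86-fold from 31.0 ± 12.7 to 10.9 ± 2.70 CPM (mean ± SD, n = 4 each). Its log2 fold change was -1.52 ± 0.29 (SE, edgeR adjusted p = 0.0348), and -0.88 against R1 and R3 (adjusted p = 0.0610). The thrombospondin THBS2, COL1A2 and CTGF had log2 fold changes of 1.26, -0.70 and -0.88 (edgeR adjusted p between 0.0626 and 0.0826), and of 0.83, -0.31 and -0.29 against R1 and R3. Among 8 other laminin receptors, edgeR called 0 (unadjusted p under 0.05 in 2, calls by DESeq2 2, by voom 0), and the syndecans SDC4, SDC2 and SDC3 and the hyaluronan receptor CD44 had log2 fold changes of 0.51, -2.70, -0.31 and -0.18. In the second comparison these were 0.36, 0.13, 0.10 and -0.16. Among 3 tested netrins, which resemble laminin arms, edgeR, DESeq2 and voom called 0, and 0 had an unadjusted p under 0.05 (NTN1 -0.27, NTN4 -0.28, NTNG2 0.27; against R1 and R3 -0.39, -0.13 and -0.20).

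The 4 calls among partner genes were not kept in each fit with 1 library left out. Without DMSO R7 or R9, or without progesterone R1, R3 or R6, none of NID1, POSTN, NEDD9 and COL17A1 passed (edgeR adjusted p between 0.0642 and 0.111), and without progesterone R2 only NID1 did (adjusted p = 0.044). These fits called 42 to 82 of all genes, beside 359 with all 8 libraries, so the loss was not particular to these 4. Their log2 fold changes kept their sign when 1 library was left out, from 0.86 to 1.12 for NID1, from -1.70 to -1.31 for POSTN, from -0.68 to -0.52 for NEDD9 and from -2.69 to -2.14 for COL17A1. Limma voom called NID1, POSTN and NEDD9 and not COL17A1 (adjusted p = 0.0658). Against R1 and R3, POSTN and NEDD9 passed without progesterone R6 (edgeR adjusted p = 0.00405 and 0.0462) and NID1 without progesterone R2 (adjusted p = 0.0214).

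**Figure D5:**
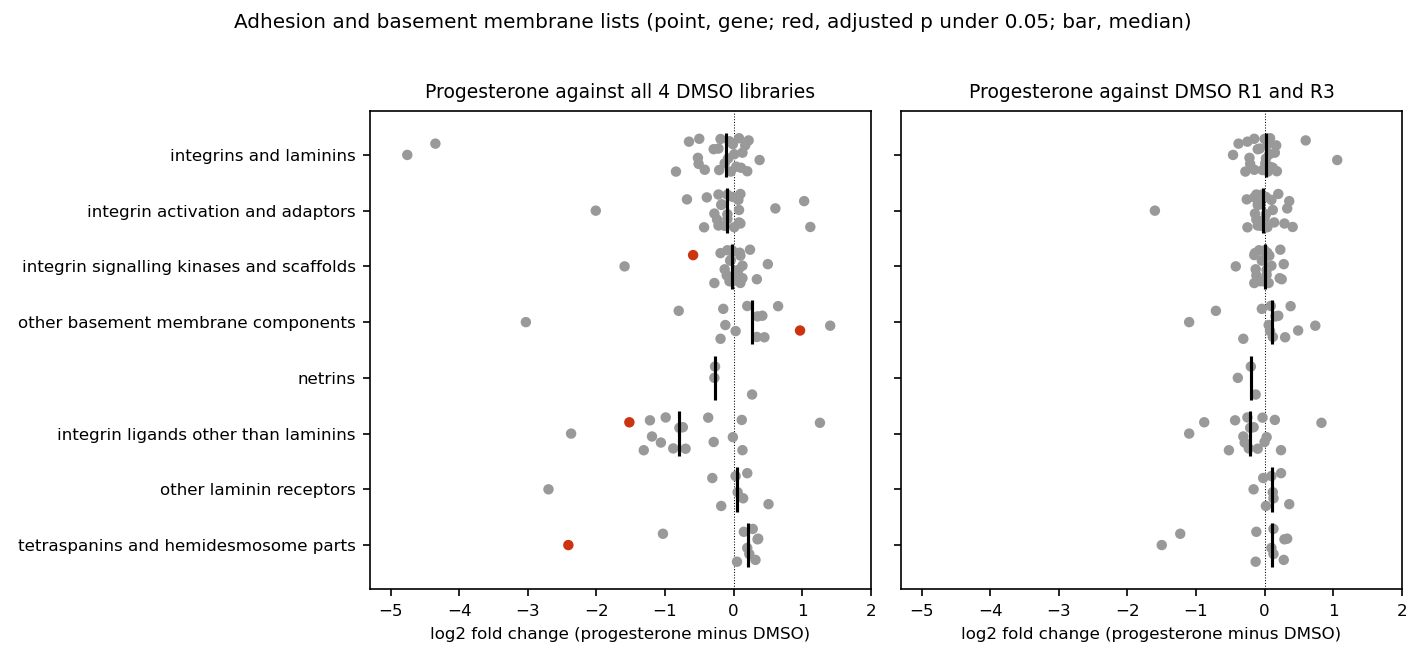
Log2 fold change of each tested gene (points) in the integrin and laminin families and in 7 lists of partner genes, with list medians as bars, against all 4 DMSO libraries on the left and DMSO R1 and R3 on the right. On the left NEDD9, NID1, POSTN and COL17A1 are past an adjusted p of 0.05 (red), and on the right no gene shown is.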

How the data were processed

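The table deposited by the authors covers 28709 genes in 8 libraries, and its values were treated as estimated counts (expected counts) because they are decimals at or above 0 whose totals differ between libraries. Its name speaks of length normalization, by a method that none of the available descriptions gives, so they may instead be counts rebuilt from length-scaled abundances. Tools listed in the submitters' processing notes are Salmon 1.4.0 and bcl2fastq, and the listed genome build is ARS-UCD1.2; their roles are not stated. Libraries were stranded mRNA preparations, per the labels' protocols. Column numbers do not match the samples' replicate numbers, so columns entered their group as unnumbered replicates.

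Counts were rounded, filtered (filterByExpr), scaled by TMM and tested across all genes with edgeR 4.0.16 (quasi-likelihood, robust, two-sided, R 4.3.3), with Benjamini-Hochberg adjustment and a threshold of 0.05. An SE is the log2 fold change divided by the square root of F. CPM are TMM-scaled over the 8 libraries. The fit was tested on simulated data in which all DMSO libraries had the same mean, without the split between R7 and R9 and the others. Changes of 1.5-fold were recovered in 61.2% of cases against all 4 DMSO libraries and 48.5% against R1 and R3. Recovery with that split present was not tested. Members and lists were chosen with earlier results of these data known. Of the 37 members 36 are described; the other is not reported here and is in no count, median or figure of the members, but stayed in every fit over all genes. Of each partner list up to 4 genes with the smallest p are named, and NID2, COL4A1, COL4A2, PLEC, FN1 and THBS1 were named after their values were seen. Alternatives were DESeq2 size factors, other filters, DESeq2 1.42.0, limma voom 3.58.1, each library left out and the column number as a block.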

Additional observations from a re-analysis of the deposited data

Results flagged for a closer look

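Within a group of 4 libraries, 2 of 52 sets of values had 1 library far from the other 3 by Dixon's criterion on the gap over the range. Chance flags about 1 in 20 where the 4 values come from 1 population. In the DMSO group the split of R7 and R9 from the other libraries can widen the range, so that rate need not hold there. ITGA5 was at 239.7 CPM in progesterone R3, the highest of its group, where the others lay between 200.7 and 207.3 CPM (ratio 0.83). ITGB8 was at 19.9 CPM in DMSO R1, above 10.7 to 11.6 CPM in the other DMSO libraries (ratio 0.90).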

How the results depend on the processing

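Against all 4 DMSO libraries, 359 genes were called; DESeq2 called 1830 and the fit without DMSO R7 and R9 162, and leaving out 1 library gave 42 to 1782. Against R1 and R3, 162 were called, 326 without a filter, 568 by DESeq2 and 19 to 178 with 1 library left out. Integrin and laminin genes called lower were 0, but 6 by DESeq2 and 0 to 4 with 1 library left out. Without DMSO R1 they were 4 and without DMSO R3 they were 2, in fits that called 1782 and 795 of all genes. None was called higher against all 4 DMSO libraries by the other tools and filters or with 1 library left out (0 to 0). Against R1 and R3 these settings called 0 in either direction.

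Column numbers 1 and 3 occur in both groups (correlations of deviations 0.226 and 0.21), but these are not the labels' replicate numbers, so the samples share only a number. The numbers of DMSO R7 and R9 and of progesterone R2 and R6 occur in 1 group only. A block on the number therefore takes up these libraries, and its difference comes from R1 and R3 of each group. Either fit with this block leaves 1 residual degree of freedom, so its calls rest on a poorly known spread. With this block, 2531 of 13557 genes were called in the fit with all libraries and 2001 of 13764 without DMSO R7 and R9. Beside these counts, 3 of the 26 members were higher (ITGA10, ITGA5 and ITGAV) and 2 lower (ITGAE and ITGB8) in each. The sign turned under the block for ITGA2 (0.04), ITGA5 (0.22), ITGA7 (-0.14), ITGA8 (0.04), ITGB1 (0.00), LAMA4 (0.39), LAMB1 (0.04) and LAMB2 (0.10), and against R1 and R3 for ITGA8 (0.05), LAMA1 (-0.28) and LAMA5 (0.05).

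Without R7 and R9 the sign turned for ITGA2 (0.07), ITGA5 (0.17), ITGA7 (-0.25), ITGB1 (0.01), LAMA1 (0.12), LAMA4 (1.06), LAMA5 (0.00), LAMB1 (0.05) and LAMB2 (0.05), and without a filter for LAMB2 (0.02). ITGB1 against R1 and R3 turned to 0.00 with DESeq2 and its size factors and to -0.01 with the other filters. With 1 library left out, values crossed 0 for ITGA2B (-0.12 to 0.18), ITGA3 (-0.02 to 0.09), ITGA5 (-0.10 to 0.03), ITGA7 (-0.03 to 0.35), ITGAV (-0.06 to 0.05), ITGB8 (-0.24 to 0.18) and LAMB2 (-0.06 to 0.06). Against R1 and R3 they did for ITGA2 (-0.22 to 0.41), ITGA2B (-0.18 to 0.13), ITGA8 (-0.17 to 0.07), ITGA9 (-0.31 to 0.18), ITGB1 (-0.03 to 0.01), ITGB5 (-0.14 to 0.16), ITGB8 (-0.67 to 0.22), LAMA1 (-0.33 to 0.72), LAMA5 (-0.05 to 0.02), LAMB1 (-0.09 to 0.18) and LAMB2 (-0.01 to 0.10). The cause was not tested. Where 1 DMSO library was left beside the progesterone libraries, it was assumed to vary as they do. A mean of at least 1 CPM left no value for LAMB3, and against R1 and R3 for LAMA4. The alternatives for NID1, POSTN, NEDD9 and COL17A1 were added after the data were seen. Few counts limit what could be detected for LAMB3 and the 10 untested genes.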
